A study of Mus musculus with 16 samples.

Results

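The genes described are the drug and xenobiotic metabolism enzymes of the mouse kidney: every row of the deposited table whose symbol falls in the cytochrome P450 subfamilies Cyp2a to Cyp2j, Cyp3a, the UDP-glucuronosyltransferase families Ugt1 to Ugt3, the glutathione transferase classes Gsta, Gstk, Gstm, Gsto, Gstp and Gstt, the membrane-bound Mgst family, the flavin monooxygenases (Fmo) or the sulfotransferases Sult1 to Sult5. These names picked 60 of the 13430 genes, by symbol alone. They were 18 Cyp2 genes, 4 Fmo genes, 13 Ugt genes, 17 Gst genes, 2 Mgst genes and 6 Sult genes. No row matched Cyp3a. All 60 passed the filter on low values, an RPKM (reads scaled to gene length and library size) of at least 0.5 in at least 4 libraries.

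Each library held RNA from 1 female C57BL/6 mouse, 2 to 3 months old, taken as a 3 mm slice from mid kidney. The mice were wild type or carried the IRR(-/-) genotype, a knockout of Insrr, the insulin receptor-related receptor that responds to alkaline fluid outside the cell. Each genotype drank water or 250 mM sodium bicarbonate at pH 8.5 for 7 days, and every animal fasted for 12 h before the kidney was taken. This gave 4 groups of 4 animals: wild type on water, wild type on bicarbonate, IRR knockout on water and IRR knockout on bicarbonate. The construction of the knockout allele, and the cells in which it acts, are not described in the labels.

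Drug metabolism is usually described in phases. Phase 1 enzymes, mainly cytochromes P450 and flavin monooxygenases of the endoplasmic reticulum, add or expose a polar group. Phase 2 enzymes then attach a sugar acid (Ugt), glutathione (Gst and Mgst) or sulfate (Sult), which makes the product easier to excrete. In the kidney these enzymes are best known from the proximal tubule, whose cells also carry the transporters that move the products into urine. Several of them also act on the body's own molecules, such as arachidonic acid, steroids, catecholamines and aldehydes made from oxidised lipids.

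Several members are close copies of each other, and this bears on how their values can be read. The coding sequences of Gstp1 and Gstp2 (chromosome 19) were 98.1% identical over 630 positions, those of Cyp2a5 and Cyp2a4 (chromosome 7) 98.4% over 1482 positions, and those of Gsta2 and Gm10639, a copy outside the name rule, 98.5% over 666 positions. Of the 31-base words of Gstp1's longest transcript, 67.5% also occurred in another gene, against 75.6% for Gsta2, 92.2% for Gsta1, 65.1% for Ugt1a2 and 0.0% for Mgst1, Cyp2f2 and Cyp2c23. The Ugt1a genes share their last exons and differ in the first. The labels do not say how the authors' counting divided such reads, so the split between copies is uncertain. The stretches printed show how little separates Gstp1 and Gsta2, both of which differed between genotypes, from their copies. They are GENCODE M21 coding bases 34 to 123 for the Gstp pair and 1 to 90 for the Gsta pair, with the differing bases in capitals.
Gstp1: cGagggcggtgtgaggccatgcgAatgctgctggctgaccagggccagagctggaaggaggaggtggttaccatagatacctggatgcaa
Gstp2: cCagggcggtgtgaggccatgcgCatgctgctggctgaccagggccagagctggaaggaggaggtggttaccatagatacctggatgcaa
Gsta2: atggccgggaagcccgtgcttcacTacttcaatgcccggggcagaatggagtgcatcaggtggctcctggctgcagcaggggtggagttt
Gm10639: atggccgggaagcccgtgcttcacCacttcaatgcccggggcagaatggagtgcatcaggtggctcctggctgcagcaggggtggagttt

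The regulators NRF2 and AHR are known to act on several of these genes through short promoter elements. The RefSeq promoter windows (250 bases before to 50 after each start, build GRCm38.p6) were searched on both strands for the antioxidant response element core TGACNNNGC and the xenobiotic response element core GCGTG. Of the 60 members, 52 matched the promoter table. These 52 had 64 windows. TGACNNNGC occurred in 5 of the 64 windows (1 each of Cyp2j6, Gsta3, Gstm5, Gstm7 and Mgst1), 7.81%, against 12.4% of all 32851 windows. GCGTG occurred in 16 of the 64, against 32.4% of all windows. Mgst1 and Gstm7 were the members with TGACNNNGC that also passed the threshold between genotypes, both as higher in the knockout. The members with GCGTG that passed were Gsta2 and Gstp1, both as lower, and their windows are not shown. For Mgst1 and Gstm7, 100 bases around each match are shown with the match in capitals. The Mgst1 window lies at chr6:138140425-138140524 on the plus strand, and its match, 56 bases before the start, reads on the opposite strand. The Gstm7 window lies at chr3:107931690-107931789 on the minus strand, with the match 129 bases before the start. A match describes letters only and does not show binding.
Mgst1: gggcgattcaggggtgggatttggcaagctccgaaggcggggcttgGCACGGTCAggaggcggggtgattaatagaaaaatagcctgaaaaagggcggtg
Gstm7: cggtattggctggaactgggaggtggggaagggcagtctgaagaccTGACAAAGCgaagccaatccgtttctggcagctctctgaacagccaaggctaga

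Some facts of the whole series bear on every value. Insrr, the targeted gene, lay between 4.20 and 6.73 RPKM in wild-type libraries and between 3.31 and 4.11 in knockout libraries, so the 2 genotypes did not overlap but reads were still assigned to it in the knockout. The 13 mitochondrial genes took 69.6% to 74.2% of a wild-type library's summed RPKM and 82.6% to 84.9% of a knockout library's, while the median RPKM stayed between 8.44 and 8.92. This share separated the genotypes completely, and its part in the genotype results below was not tested. The summed level of 6 markers of the S3 segment of the proximal tubule was lowest in wild type, bicarbonate, replicate 3, at 2314.9 RPKM against 7734.5 to 23377.9 in the other 15 libraries. All 8 general proximal tubule markers were in the table and summed to between 6128.5 and 9193.7 RPKM, and the adrenal list had 1 of its 5 markers there. In bulk tissue, fewer cells of a type and less RNA per cell cannot be told apart.

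The kidney slices held these enzymes at widely different levels. Averaged over the 16 libraries, 18 members reached 100 RPKM, 41 reached 10, 54 reached 1 and 6 stayed below 1. RPKM is corrected for gene length, so levels may be compared between genes. The 12 highest were Fmo1, Gsta2, Ugt3a2, Sult1d1, Ugt1a2, Cyp2j5, Gstm1, Cyp2d26, Mgst1, Fmo2, Ugt3a1 and Ugt1a7c, in that order. In the Fmo family and in several subfamilies or classes of the other families, 1 gene held most of the summed level. In wild type on water Fmo1 gave 78.8% of the Fmo sum, Gsta2 76.7% of the Gsta sum, Ugt1a2 74.6% of the Ugt1a sum, Cyp2j5 73.1% of the Cyp2j sum, Ugt3a2 78.5% of the Ugt3a sum and Gstm1 65.2% of the Gstm sum. The 60 members together summed to 6846.1 ± 497.0 RPKM (mean ± SD, n = 4) in wild type on water and 6049.7 ± 393.0 on bicarbonate, and to 6973.0 ± 231.0 and 6105.2 ± 451.0 in the knockout.

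**Figure D1:**
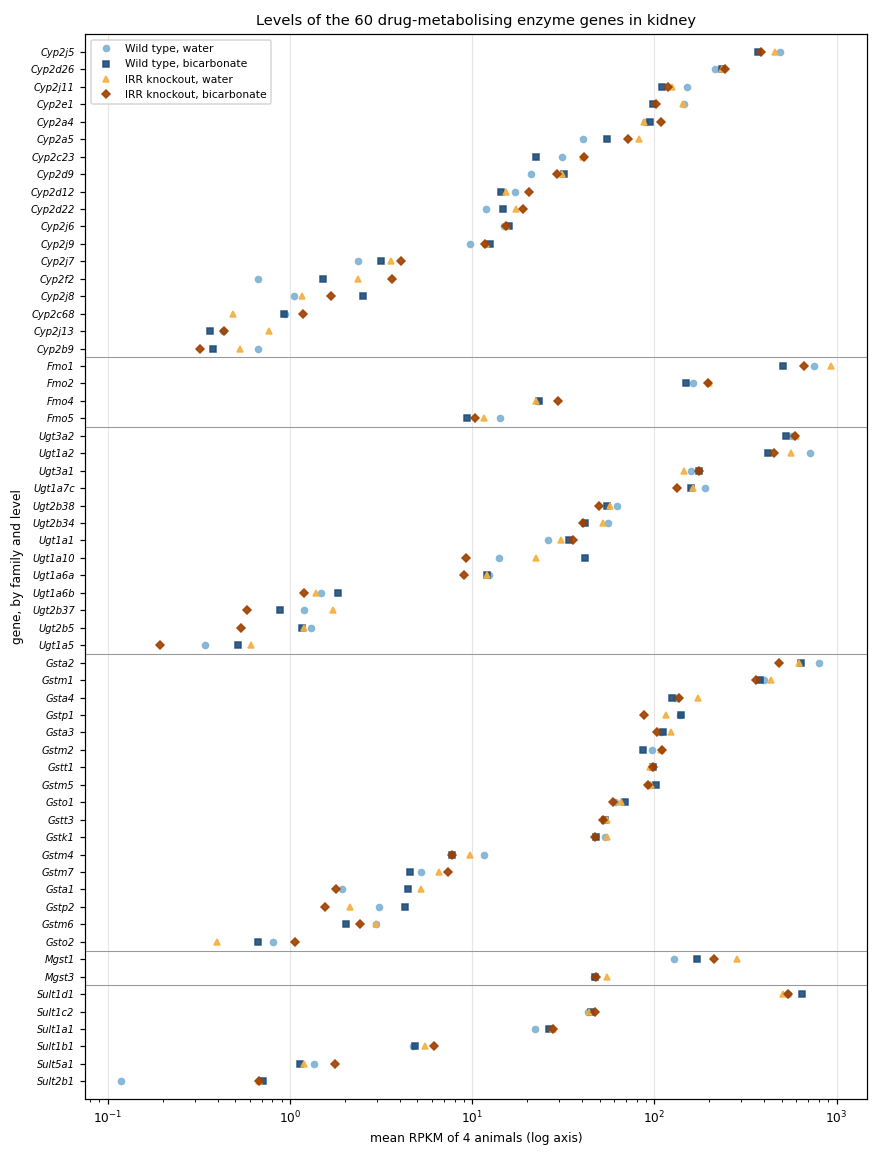
Mean RPKM of each of the 60 genes in the 4 groups, on a log axis, with genes ordered by family and level and 1 point per group of 4 animals. For most genes the 4 group means lie close together compared with the distance between genes, and Fmo1 is the highest at 933.9 ± 95.2 RPKM (mean ± SD) in the knockout on water.

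Among the P450 enzymes, the arachidonic acid epoxygenase Cyp2j5 led. Its level was 488.5 ± 29.4 RPKM (mean ± SD, n = 4, as for all such values) in wild type on water, followed in that group by Cyp2d26 at 216.2 ± 32.0 and Cyp2j11 at 150.9 ± 14.2. Cyp2e1, which oxidises ethanol and small solvents, stood at 145.1 ± 15.7, and Cyp2a4, a steroid hydroxylase, at 88.3 ± 12.7. Cyp2c23, another epoxygenase of arachidonic acid, reached 31.0 ± 6.11 and Cyp2f2, known for activating naphthalene in lung airway cells, only 0.67 ± 0.166. Cyp2e1 spread widely within the knockout on bicarbonate, at 196.8, 72.7, 87.1 and 52.0 RPKM in replicates 1 to 4. The summed level of 3 adipose markers in the same libraries was 165.0, 0.191, 13.6 and 4.75 RPKM, and its part in the Cyp2e1 values was not tested.

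Of the conjugating enzymes, Gsta2 stood at 796.8 ± 64.6 RPKM in wild type on water, Ugt1a2 at 717.9 ± 59.6 and Ugt3a2, which uses a sugar other than glucuronic acid, at 569.3 ± 28.0. Sult1d1, which sulfates catecholamines, stood at 543.8 ± 204.0. It showed the widest spread of these in that group, with 350.0, 385.8, 708.9 and 730.6 RPKM in replicates 1 to 4. Replicates 1 and 2 were thus low and replicates 3 and 4 high. The 8 general proximal tubule markers summed to 6506.8, 6128.5, 8604.2 and 9193.7 RPKM in the same 4 libraries, and their part in the Sult1d1 spread was not tested. Among the 41 members with a mean of at least 10 RPKM, the mean coefficient of variation within groups ran from 4.43% for Ugt3a2 to 69.4% for Ugt1a10, with a median of 13.6% against 10.0% for all 6275 genes at that level.

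In wild-type mice, bicarbonate was tested first as the response of a normal kidney to the drink. The drink held sodium as well as bicarbonate, and their parts cannot be told apart. No member passed the threshold: limma called 0 of 60 at an adjusted p under 0.05, where 0.139% of all 12943 tested genes were called. At an unadjusted p under 0.05 there were 17 of 60 (5 higher and 12 lower on bicarbonate), against 12.0% of all genes. The groups did not overlap for 9 members, against 5.86% of all genes: 2 were higher (2.54% of all genes) and 7 lower (3.31%). The median log2 difference was 0.02 over the members and -0.01 over all genes. All log2 differences use log2(RPKM + 0.1).

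The 5 members with the smallest p in wild type had not passed. Ugt1a2 was at 745.9, 737.7, 758.4 and 629.4 RPKM on water and 424.1, 438.6, 379.0 and 438.1 on bicarbonate. Every bicarbonate library lay below every water library, with a log2 difference of -0.77 (SE 0.15, adjusted p = 0.061, limma). Summed over the 7 Ugt1a genes, an alternative added after seeing the data, that difference was -0.53 (adjusted p = 0.0922). Cyp2j11, a P450 of the epoxygenase subfamily, was at 150.7, 169.2, 149.2 and 134.5 RPKM on water and 102.9, 116.6, 101.2 and 116.3 on bicarbonate, again without overlap, a log2 difference of -0.46 (SE 0.10, adjusted p = 0.0612).

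Fmo1, which oxidises nitrogen and sulfur atoms of drugs, was at 659.5, 593.3, 916.7 and 842.6 RPKM on water in wild type and 491.0, 511.8, 520.5 and 504.6 on bicarbonate. The bicarbonate libraries were closely grouped below all 4 water libraries, with a log2 difference of -0.55 (SE 0.11, adjusted p = 0.0647). Cyp2j5 was at 498.9, 525.5, 463.8 and 465.9 on water and 346.0, 365.3, 386.4 and 384.9 on bicarbonate, without overlap, and differed by -0.40 (SE 0.09, adjusted p = 0.0869). Cyp2j8 went the other way at a low level. It was at 1.06, 0.746, 0.943 and 1.46 RPKM on water and 2.91, 3.01, 1.85 and 2.23 on bicarbonate, a log2 difference of 1.18 (SE 0.30, adjusted p = 0.119), with every bicarbonate library above the water libraries.

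None of these members was called in the main fit, and most alternatives left them uncalled. Ugt1a2 passed in 3 of 20: with only the wild-type groups in the fit (adjusted p = 0.0224, limma), with quantile normalization (0.0476) and without wild type, bicarbonate, replicate 4 (0.0465). Its highest value was 0.146. Cyp2j11 passed in 1 of 20, without that same library (0.0478), with values of up to 0.242. Fmo1 passed in 1 of 20, without wild type, water, replicate 2 (0.0416), with values of up to 0.324. Cyp2j5 and Cyp2j8 passed in 0 of 20.

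In the knockout, limma again called 0 of 60 members for the drink, where 0.0232% of all genes were called. At an unadjusted p under 0.05 there were 15 of 60, 3 higher and 12 lower on bicarbonate, against 7.99% of all genes. The groups did not overlap for 9 members, against 5.66% of all genes: 1 was higher (2.72% of all genes) and 8 lower (2.94%). The median log2 difference was -0.08 over the members and 0.01 over all genes.

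Fmo1 had the smallest p in the knockout, though short of the threshold. It was at 845.9, 1064.0, 884.4 and 941.3 RPKM on water and 630.6, 705.3, 683.8 and 636.3 on bicarbonate, without overlap, a log2 difference of -0.49 (SE 0.11, adjusted p = 0.292, limma). Ugt2b37, a low-level glucuronosyltransferase, was at 2.31, 1.24, 2.1 and 1.19 on water and 0.758, 0.883, 0.414 and 0.26 on bicarbonate, a difference of -1.47 (SE 0.40, adjusted p = 0.319), also without overlap. Gsta2, an alpha-class glutathione transferase, was at 639.1, 628.4, 584.4 and 617.7 on water and 551.4, 482.6, 515.3 and 390.5 on bicarbonate. All 4 bicarbonate libraries lay below the water libraries, with a difference of -0.36 (SE 0.10, adjusted p = 0.319).

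Ugt2b34 was at 52.2, 52.4, 57.4 and 45.8 RPKM on water in the knockout and 42.7, 40.8, 37.9 and 39.6 on bicarbonate, a log2 difference of -0.36 (SE 0.11, adjusted p = 0.388) without overlap. Gstp1, the pi-class transferase, was at 142.8, 113.5, 88.6 and 119.3 on water and 104.3, 80.3, 93.0 and 73.4 on bicarbonate. These groups overlapped, and the difference was -0.40 (SE 0.13, adjusted p = 0.431). The 5 blood cell markers summed to 373.3 to 2067.6 RPKM in the knockout on water and 233.7 to 612.5 on bicarbonate; their part in the Gstp1 values was not tested.

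**Figure D2:**
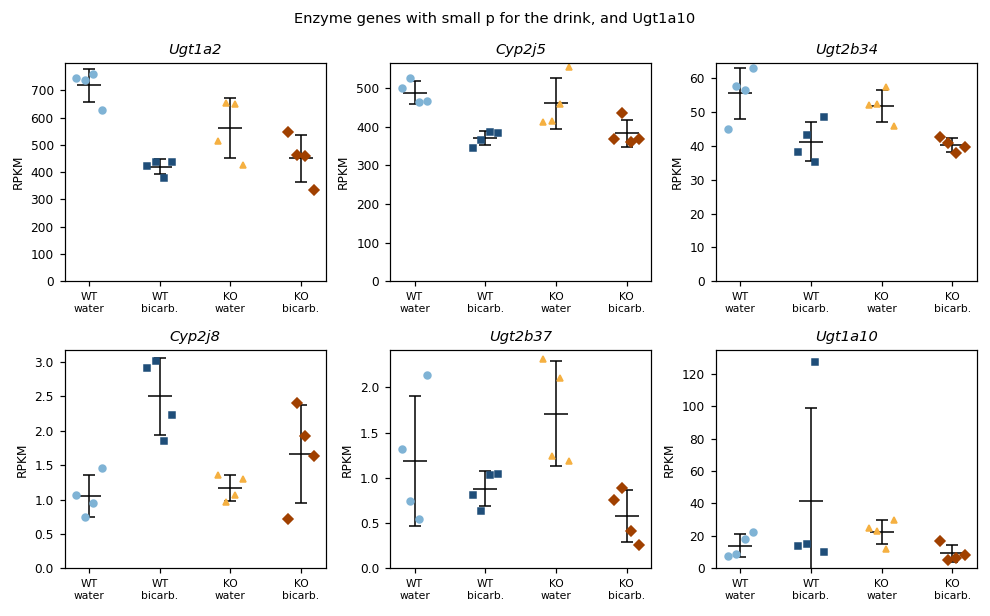
RPKM of each animal for 6 members in the 4 groups (WT, wild type; KO, IRR knockout), on linear axes from 0. Bars show the mean and SD of 4 animals, cut at 0. Ugt1a2, Cyp2j5 and Ugt2b34 have lower means on bicarbonate in both genotypes, and wild type, bicarbonate, replicate 3 stands alone for Ugt1a10 at 127.4 RPKM.

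The drink comparisons of the 2 genotypes share no library but share the estimate of spread, so their lists are not independent. Of the 12 members with an unadjusted p under 0.05 and a lower level on bicarbonate in wild type, 7 were also among the 12 of the knockout, 58.3% of each list. Of all genes, 6.42% met this criterion in wild type and 4.03% in the knockout, and 118 met it in both, 14.2% of the wild-type list and 22.6% of the knockout list. The difference between these shares was not tested. The 7 members in both lists were Cyp2j5, Fmo1, Gsta2, Gstk1, Ugt1a2, Ugt1a7c and Ugt2b34. Beside the values above, the log2 difference in wild type was -0.33 ± 0.10 (SE) for Gsta2 and -0.43 ± 0.11 (SE) for Ugt2b34. Gstk1, the kappa-class transferase of mitochondria and peroxisomes, differed by -0.18 ± 0.08 (SE) in wild type and -0.23 ± 0.08 (SE) in the knockout, and Ugt1a7c by -0.26 ± 0.12 (SE) and -0.30 ± 0.12 (SE). Cyp2j5 and Ugt1a2 differed in the knockout by -0.26 ± 0.09 (SE) and -0.32 ± 0.15 (SE). They were named after their values were seen, none passed the adjusted threshold in either genotype, and Gsta2, Ugt1a2 and Ugt1a7c have close copies. On the higher side Cyp2f2 was shared, out of 5 in wild type (5.55% of all genes) and 3 in the knockout (3.96%). Among the 18 members with a mean of at least 100 RPKM, 12 had a negative log2 difference in wild type and 14 in the knockout, with medians of -0.12 and -0.26. All genes at that level were not counted, so whether this is particular to the enzymes is unknown.

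Summed levels by family, subfamily or class give the size of this pattern, as a description, and some had means that went the other way. The Fmo sum was 952.7 ± 169.0 RPKM on water and 687.9 ± 23.9 on bicarbonate in wild type, and 1167.1 ± 104.0 and 900.1 ± 37.9 in the knockout. The Ugt1a sum was 961.5 ± 59.7 and 668.9 ± 68.5 in wild type and 790.4 ± 109.0 and 637.9 ± 108.0 in the knockout. The Gsta sum was 1038.7 ± 58.6 and 876.0 ± 120.0 in wild type and 920.1 ± 88.3 and 726.0 ± 106.0 in the knockout. The Sult, Cyp2d and Cyp2a sums had higher means on bicarbonate in both genotypes, but their ranges on water and on bicarbonate overlapped in each genotype. The Sult sum was 615.6 ± 205.0 and 719.8 ± 96.6 in wild type and 588.1 ± 92.6 and 622.3 ± 61.1 in the knockout. The Cyp2d sum was 266.1 ± 41.6 and 296.9 ± 37.6, then 299.0 ± 37.4 and 312.6 ± 29.1. The Cyp2a sum was 128.9 ± 15.6 and 148.9 ± 19.8, then 170.0 ± 36.4 and 179.3 ± 16.6. The Mgst sum had a higher mean on bicarbonate in wild type (174.7 ± 36.0 and 218.9 ± 34.6) and a lower mean in the knockout (337.0 ± 58.6 and 260.4 ± 39.7), with overlap in both. The Ugt3a sum, 727.5 ± 64.7 and 704.4 ± 43.8 in wild type and 739.0 ± 59.3 and 762.8 ± 45.3 in the knockout, and the Gstt sum, 149.4 ± 12.0 and 151.4 ± 12.2 and then 149.6 ± 11.7 and 150.6 ± 7.5, differed by less than the spread between animals. The 6 markers of the early proximal tubule (S1 and S2) summed to 1048.2 ± 41.9 and 927.0 ± 72.6 RPKM in wild type and 1062.0 ± 62.5 and 965.5 ± 12.7 in the knockout. The 8 general proximal tubule markers summed to 7845.4 to 8499.1 RPKM on water and 6300.1 to 7396.4 on bicarbonate in the knockout, without overlap. In wild type they summed to 6128.5 to 9193.7 and 6681.5 to 8175.8, with overlap. The part of both marker lists in the lower enzyme levels on bicarbonate was not tested.

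**Figure D3:**
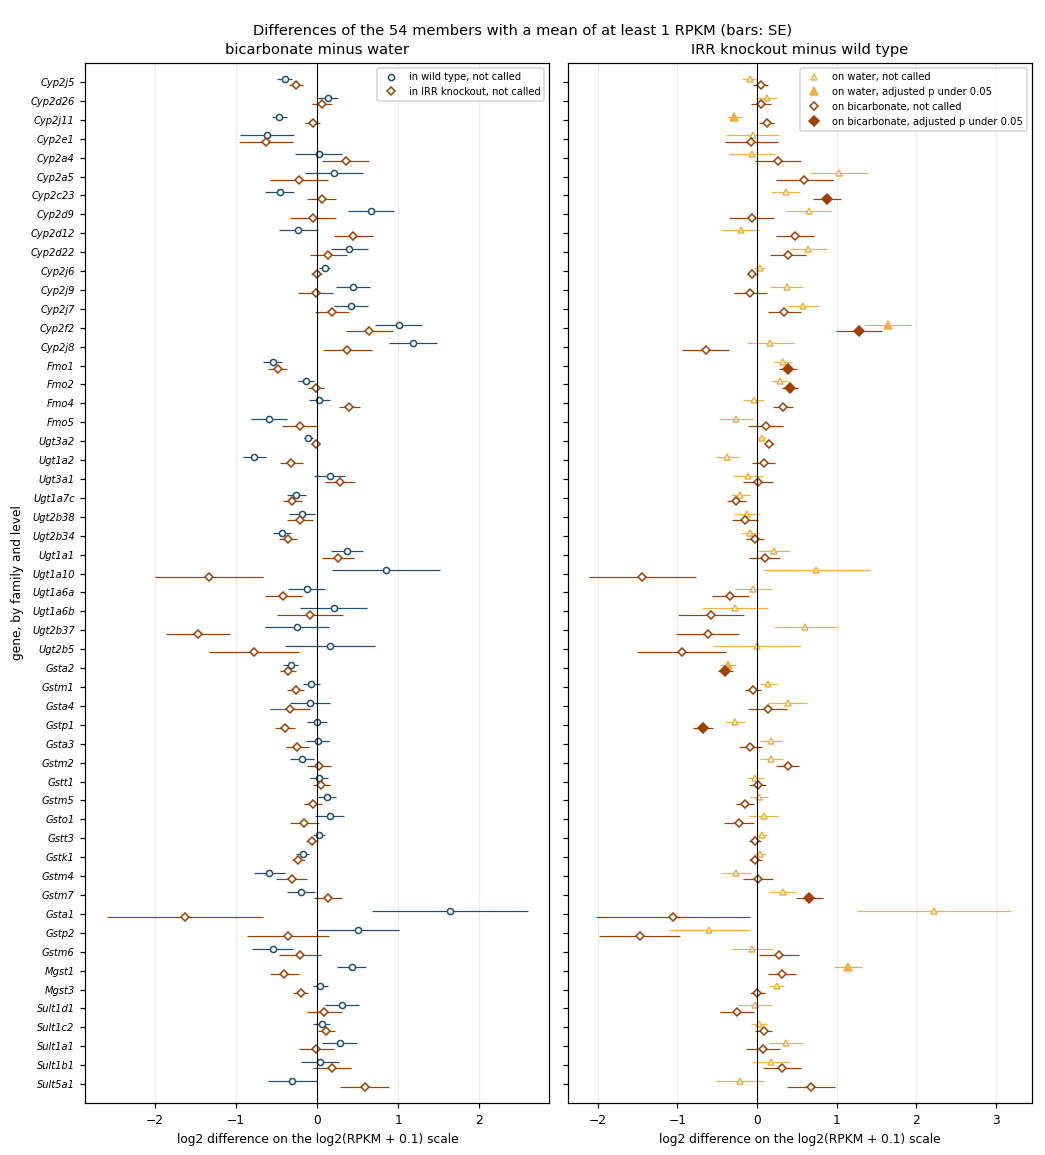
Log2 difference and its SE for each of the 54 members with a mean of at least 1 RPKM, for the drink in each genotype (left) and for the genotype on each drink (right). Filled points have an adjusted p under 0.05 in limma. No point is filled for the drink, 4 are filled for genotype on water and 7 for genotype on bicarbonate.

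On water, the genotype comparison asks how IRR(-/-) animals differ from wild type without the bicarbonate drink. Of the 60 members, 4 passed the threshold, or 6.67%, where 21.9% of all genes did. Mgst1 and Cyp2f2 were higher in the knockout, where 10.1% of all genes were, and Gsta2 and Cyp2j11 lower, where 11.8% were. At an unadjusted p under 0.05 there were 14 members, against 34.3% of all genes, and for 4 members the groups did not overlap, against 23.8% (3 higher, against 10.8%, and 1 lower, against 13.0%). The count moved with the scaling: it was 9 (8 higher and 1 lower) with median-of-ratios scaling, 8 (4 and 4) with quantile normalization and 9 (7 and 2) with a length and GC trend removed. It was 7 without wild type, water, replicate 3 and 9 without wild type, water, replicate 4. The share of all genes was counted for the main fit only, so these counts have none beside them. The median log2 difference over all genes was -0.0465 in the main fit and -0.0131 with median-of-ratios scaling. It was -0.0191 with quantile normalization and -0.0072 with the trend removed.

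Mgst1, a membrane-bound glutathione transferase of the endoplasmic reticulum and outer mitochondrial membrane, was at 115.5, 103.0, 123.7 and 171.5 RPKM in wild type on water and 359.4, 269.9, 224.5 and 275.9 in the knockout. The lowest knockout library lay above the highest wild-type library. The log2 difference was 1.14 ± 0.18 (SE), a 2.21-fold higher level (adjusted p = 0.000351, limma), and the call held in all 20 alternatives. Its relative Mgst3 was at 46.3 ± 6.31 and 54.6 ± 2.73 RPKM and did not pass (adjusted p = 0.0734).

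Cyp2f2 was at 0.735, 0.445, 0.663 and 0.836 RPKM in wild type on water and 1.61, 3.17, 1.76 and 2.86 in the knockout. All knockout libraries were higher, with a log2 difference of 1.64 (SE 0.29, adjusted p = 0.001, limma), and the call held in all 20 alternatives. Cyp2j11 was at 100.2, 135.4, 132.9 and 128.6 RPKM in the knockout on water, which overlapped the wild-type values given above. Its difference of -0.28 (SE 0.10, adjusted p = 0.043) lost its call in 9 of 20 alternatives, with an adjusted p of up to 0.235.

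Gsta2 was at 726.1, 760.7, 865.8 and 834.8 RPKM in wild type on water, and all 4 knockout libraries on water, given above, lay below these. The log2 difference was -0.36 (SE 0.10, adjusted p = 0.0145, limma) and held in all 20 alternatives. With Gsta1, Gsta2 and Gm10639 summed it was -0.37 (adjusted p = 0.0122). Fmo2, next by p, just missed the threshold at 0.29 (SE 0.10, adjusted p = 0.0507) and passed it in 6 alternatives.

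On bicarbonate, 7 of 60 members differed between genotypes, or 11.7%, where 18.4% of all genes did. Cyp2c23, Cyp2f2, Fmo1, Fmo2 and Gstm7 were higher in the knockout, as were 9.03% of all genes, and Gstp1 and Gsta2 lower, as were 9.36%. There were 15 members at an unadjusted p under 0.05, against 31.4% of all genes, and 10 whose groups did not overlap, against 22.8% (5 higher, against 11.0%, and 5 lower, against 11.8%). The count was 8 without wild type, bicarbonate, replicate 3.

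Among phase 1 genes on bicarbonate, Cyp2c23 was at 23.0, 24.3, 18.3 and 23.6 RPKM in wild type and 43.1, 42.6, 40.4 and 37.3 in the knockout. All knockout libraries were higher, by 0.88 ± 0.18 (SE) on the log2 scale (adjusted p = 0.00357, limma). Cyp2f2 was at 1.16, 1.98, 2.14 and 0.811 and 3.17, 3.15, 4.03 and 4.11, also without overlap, a difference of 1.28 (SE 0.29, adjusted p = 0.00712). Both calls held in all 20 alternatives.

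The flavin monooxygenases Fmo1 and Fmo2 were both higher in the knockout on bicarbonate. Fmo2 was at 127.7, 143.0, 153.3 and 169.0 RPKM in wild type and 205.9, 187.9, 204.0 and 186.9 in the knockout, a log2 difference of 0.41 ± 0.10 (SE) without overlap (adjusted p = 0.0106, limma). Fmo1, whose values on bicarbonate are given above and do not overlap, differed by 0.39 (SE 0.11, adjusted p = 0.0273). That call was lost in 6 of 20 alternatives: quantile normalization (adjusted p = 0.195) and the omission of wild type replicate 1, 2 or 4 or knockout replicate 2 or 3, with values from 0.0535 to 0.0743.

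Among the glutathione transferases on bicarbonate, Gstp1 was at 139.8, 128.9, 155.3 and 133.1 RPKM in wild type, above all 4 knockout libraries. The log2 difference was -0.68 (SE 0.13, adjusted p = 0.00191, limma), and -0.69 (adjusted p = 0.00151) with Gstp1 and Gstp2 summed. Gstp2 alone was at 4.27 ± 1.71 and 1.56 ± 0.867 RPKM and did not pass (adjusted p = 0.0557). The 5 blood cell markers summed to 811.5 to 1549.9 RPKM in wild type on bicarbonate and 233.7 to 612.5 in the knockout, without overlap, and their part in the Gstp1 difference was not tested.

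Gsta2 on bicarbonate was at 619.3, 628.7, 718.6 and 578.1 RPKM in wild type, above all 4 knockout libraries, a log2 difference of -0.40 (SE 0.10, adjusted p = 0.0106, limma). Gstm7, a mu-class transferase at a low level, was at 4.96, 4.8, 4.12 and 4.25 in wild type and 7.26, 9.0, 8.16 and 4.92 in the knockout. Knockout replicate 4 fell among the wild-type values, so the groups overlapped, and the difference was 0.65 (SE 0.17, adjusted p = 0.0145). The calls of Gstp1, Gsta2 and Gstm7 held in all 20 alternatives. Gstm1, the main mu-class gene, was at 378.0 ± 54.9 and 362.8 ± 33.8 RPKM (adjusted p = 0.782).

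The genotype differences on water and on bicarbonate also come from different libraries but share the estimate of spread, so their lists are not independent. Cyp2f2, higher in the knockout, and Gsta2, lower, passed in both, which is 50.0% of the calls on water and 28.6% of those on bicarbonate. Over all genes, the calls shared in the same direction were 54.5% and 64.8% of the respective lists. None of the 13 Ugt genes and none of the 6 Sult genes passed between genotypes on either drink, where 21.9% of all genes passed on water and 18.4% on bicarbonate. At an unadjusted p under 0.05, 1 Ugt gene and 0 Sult genes were counted on water, against 34.3% of all genes, and 3 Ugt genes and 1 Sult gene on bicarbonate, against 31.4%.

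**Figure D4:**
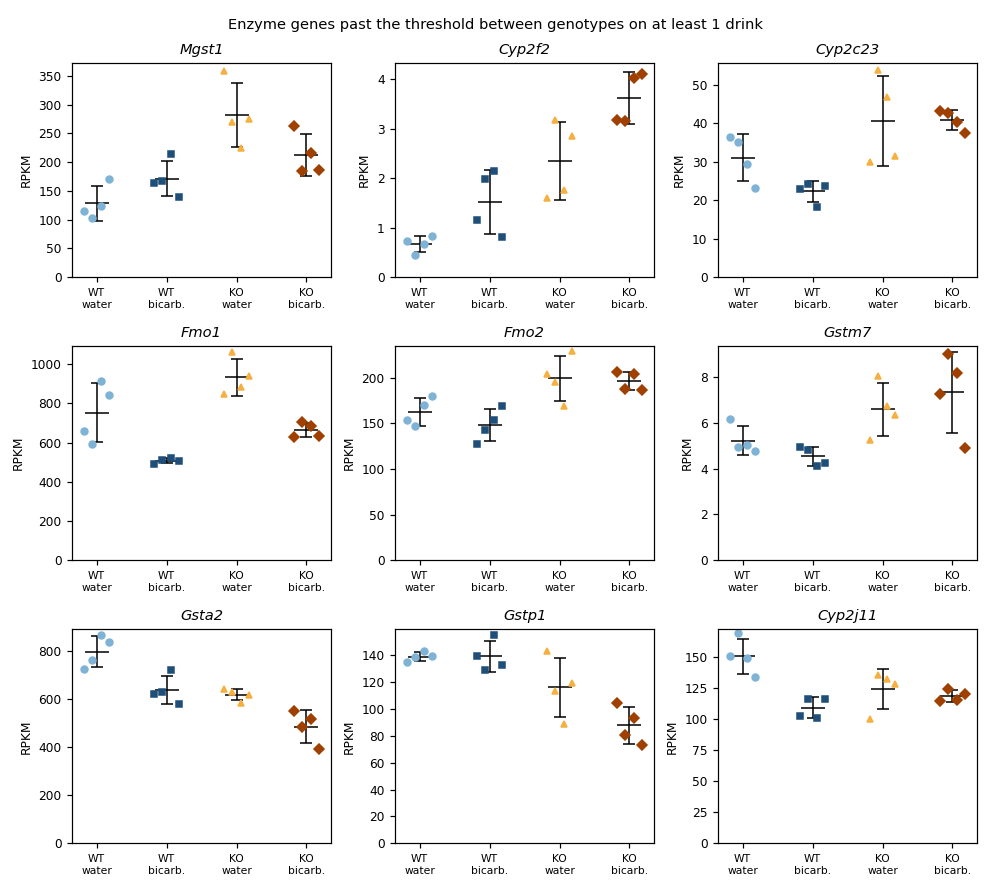
RPKM of each animal in the 4 groups (WT, wild type; KO, IRR knockout) for the 9 members that passed the threshold between genotypes on at least 1 drink, on linear axes from 0, with the mean and SD of 4 animals. Gsta2 steps down with both the knockout and bicarbonate, from 796.8 ± 64.6 to 484.9 ± 68.9 RPKM, and Cyp2f2 has its highest values in the knockout on bicarbonate.

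The interaction, which is the drink difference of the knockout less that of the wild type, was called for 0 of 60 members by limma, where 0.0155% of all genes were called. At an unadjusted p under 0.05 there were 8, 2 higher and 6 lower, against 8.19% of all genes. Mgst1 had the smallest p. Its level on bicarbonate was 164.6, 167.1, 214.2 and 139.9 RPKM in wild type and 263.5, 185.4, 215.8 and 186.6 in the knockout. It thus differed by 0.43 ± 0.18 (SE) for the drink in wild type and -0.40 ± 0.18 (SE) in the knockout, an interaction of -0.83 (SE 0.25, adjusted p = 0.469). The next 4 were Cyp2j11 at 0.41 (SE 0.13, adjusted p = 0.492), Ugt1a5 at -2.17 (SE 0.82, adjusted p = 0.551), Gsta1 at -3.28 (SE 1.36, adjusted p = 0.575) and Ugt1a10 at -2.18 (SE 0.95, adjusted p = 0.595). Ugt1a5 was near the 0.1 RPKM added before the logarithm, at 0.0, 0.0855, 0.609 and 0.669 RPKM in wild type on water. Its interaction ran from -3.48 to -0.62 over 25 alternatives. Gsta1 was listed at 0 in wild type, water, replicate 2, and its interaction ran from -4.19 to -2.02 over 26 alternatives. For Gsta1 and Ugt1a10, wild type, bicarbonate, replicate 3 was far above the other 3 libraries of its group, at 10.9 against 1.46 to 2.77 RPKM and 127.4 against 10.2 to 14.9 RPKM.

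That library lay furthest from its group over the members, though others came close. It was the highest of its group for 31 members and the lowest for 19 of the 60, and its median absolute log2 distance from the others was 0.34 over the members and 0.22 over all tested genes. For wild type, water, replicate 1 that distance was 0.31 over the members. Wild type, water, replicate 4 was the highest of its group for 28 members, and knockout, bicarbonate, replicate 4 the lowest for 27. Cyp2a5, which hydroxylates coumarin, was at 29.5, 33.6, 117.8 and 37.7 RPKM in wild type on bicarbonate, with replicate 3 the high value. In the knockout Cyp2a5 was at 85.1, 102.0, 65.8 and 75.6 on water, above all wild-type libraries on water (31.7, 52.7, 33.1 and 45.0), but did not pass (log2 difference 1.03 ± 0.36 (SE), adjusted p = 0.0547). Summed with its close copy Cyp2a4, the genotypes overlapped on water, at 117.1 to 150.0 RPKM in wild type and 130.9 to 215.0 in the knockout.

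**Figure D5:**
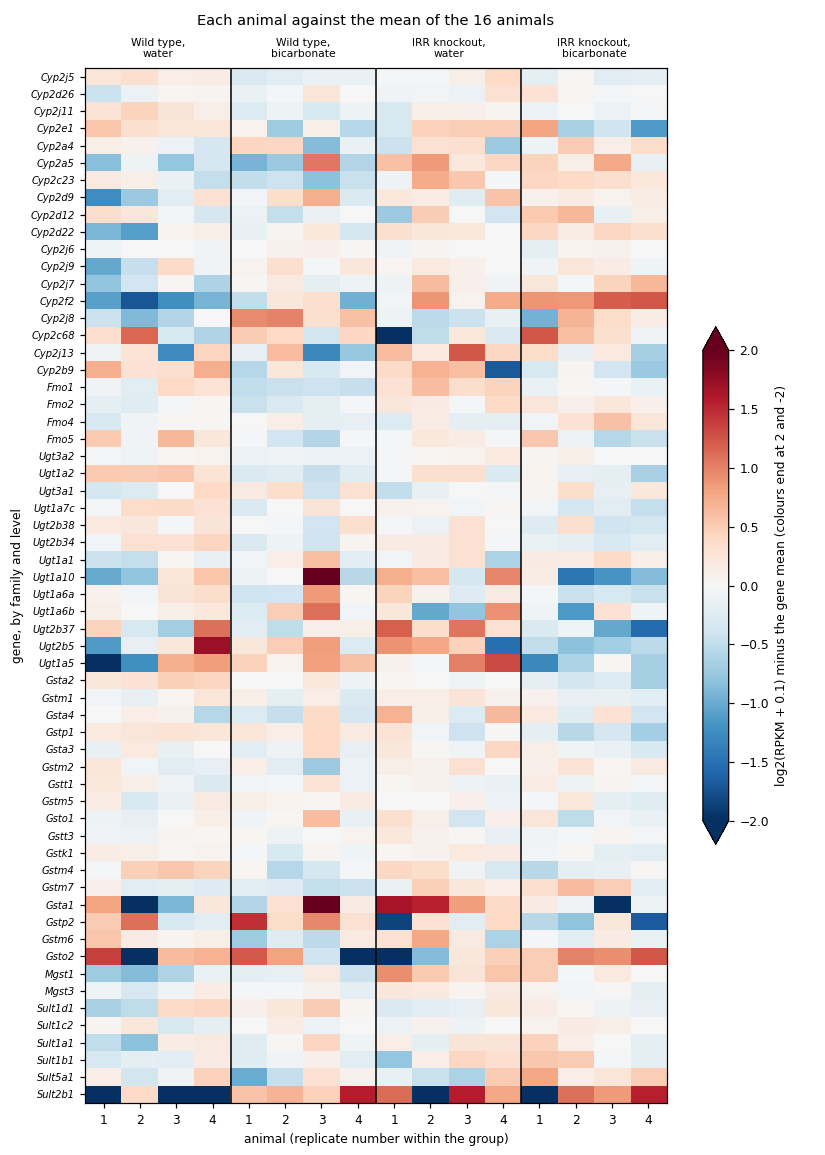
Each animal's log2(RPKM + 0.1) minus the gene's mean over the 16 animals, for the 60 members in rows and the animals in columns, grouped by genotype and drink. Red is above the mean and blue below, and colours end at 2 and -2. Wild type, bicarbonate, replicate 3 differs from its group for Ugt1a10, Gsta1 and Cyp2a5, and the rows of low genes such as Sult2b1 and Gsto2 vary most.

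The other genes of drug metabolism were read from 6 lists, of which 159 of 168 genes were in the table. For the drink the lists gave 1 call: Slc22a8, an organic anion transporter of the proximal tubule, was lower on bicarbonate in wild type, with a log2 difference of -0.30 (adjusted p = 0.0468, limma), a call lost in 13 of 20 alternatives. In the knockout no list gene was called for the drink, while the unadjusted p was under 0.05 for 1 of 26 regulators, 4 of 20 redox and haem genes, 8 of 43 other phase 1 enzymes, 1 of 20 other phase 2 enzymes, 3 of 21 glutathione genes and 6 of 27 transporters, against 7.99% of all genes.

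Between genotypes, the calls of each list may be read against those of all genes, where 10.1% passed as higher in the knockout and 11.8% as lower on water, against 9.03% and 9.36% on bicarbonate. No list was tested against the other genes. The 26 sensors and regulators gave 4 higher calls and 1 lower call on water, and 5 higher calls and 1 lower call on bicarbonate. Ncor1, a co-repressor, was higher by 0.55 on water (adjusted p = 8.39e-05) and 0.61 on bicarbonate. The 20 genes for P450 redox partners and haem supply had 2 higher and 5 lower calls on water, against 2 higher and 4 lower calls on bicarbonate. Cyb5r3, which reduces cytochrome b5, was higher by 0.52 on water (adjusted p = 8.94e-06), and Pgrmc1, which binds haem and P450 enzymes, lower at -0.22 (adjusted p = 0.00481).

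The 43 other phase 1 enzymes had 8 higher and 0 lower calls on water, against 3 higher and 2 lower calls on bicarbonate. Akr1a1, an aldehyde reductase, was higher by 0.66 on water (adjusted p = 4.92e-05) and by 0.51 on bicarbonate, and the alcohol dehydrogenase Adh1 by 0.46 and 0.44. The 20 other phase 2 enzymes gave 2 lower calls on water, with 0 higher, and 2 lower calls and 1 higher call on bicarbonate. Papss1, which makes the sulfate donor used by the Sult enzymes, was lower, with log2 differences of -0.72 on water (adjusted p = 0.00779) and -0.81 on bicarbonate. Hnmt, which methylates histamine, was lower at -0.54 on water (adjusted p = 0.0014).

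The 21 genes of glutathione supply and turnover gave 5 lower calls and 1 higher call on water, and 3 lower calls and 1 higher call on bicarbonate. Gss, glutathione synthetase, was at 108.9, 106.3, 116.7 and 126.9 RPKM in wild type on water and 65.4, 70.0, 75.4 and 64.4 in the knockout, without overlap, a log2 difference of -0.73 (adjusted p = 3.26e-05, limma). On bicarbonate the difference was -0.70 (adjusted p = 7.46e-05). Lap3, an aminopeptidase, was lower, with log2 differences of -0.43 and -0.47. The 27 drug transporters had 7 higher calls and 1 lower call on water, against 3 higher calls and 1 lower call on bicarbonate. Slc22a8 was higher by 0.39 on water (adjusted p = 0.000146) and 0.47 on bicarbonate.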

How the data were processed

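Gene values are RPKM, 1 column per library, made by the authors and deposited as 1 table. Per the submitters' processing notes, Salmon 1.5.2 and edgeR 3.34.0 were used and the builds GRCm39 and mm10 are named with no role. Whole reads could not be recovered, so depth is unknown and no counting interval is given. A value of 0 means only listed at 0.

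All genes were fitted together with limma 3.58.1 (R 4.3.3). The fit used log2(RPKM + 0.1), trended and robust variance and 4 group means over 16 libraries, with 12 residual degrees of freedom. Genes with at least 0.5 RPKM in at least 4 libraries were tested (12943, with 487 set aside). P-values were Benjamini-Hochberg adjusted over all tested genes per comparison, two-sided, with a threshold of 0.05. The test was checked on simulated data. Positions, lengths and symbols came from GENCODE M21.

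Members and gene lists were chosen with earlier results of these data known. Named are Insrr, the 12 most abundant members, every member that passed, the 5 with the smallest p in the interaction and wherever fewer than 5 passed, and up to 3 genes per list and comparison. Of those list genes, the text gives values for a part and counts for the rest. Alternatives covered pseudocounts of 0.01 and 1, filters, scaling, length and GC, variance, array weights, a replicate block and each library left out. A sum of copies was added after seeing the data.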

Additional observations from a re-analysis of the deposited data

Results flagged for a closer look

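Among the 28 named members, 112 groups of 4 animals were checked for 1 animal standing apart from the other 3 by Dixon's criterion at its 95% level, which chance meets in about 1 of 20 groups, and 9 met it. Wild type, bicarbonate, replicate 3 accounted for 3 of them, all as the highest value: Ugt1a10 at 127.4 RPKM against 10.2 to 14.9, Cyp2a5 at 117.8 against 29.5 to 37.7, and Gsta1 at 10.9 against 1.46 to 2.77. Each of these genes has close copies in the genome. The sum of Cyp2a5 and Cyp2a4 was 152.0, 154.5, 168.1 and 121.1 RPKM in replicates 1 to 4 of that group, so replicate 3 stood less apart.

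In wild type on water, Ugt1a2 was low in replicate 4 at 629.4 RPKM against 737.7 to 758.4, and Gstm7 was high in replicate 1 at 6.16 against 4.78 to 5.01. In wild type on bicarbonate, Ugt3a2 in replicate 2 was at 543.7 against 521.7 to 525.0. In the knockout on water, Cyp2d26 in replicate 4 was at 285.9 against 214.0 to 222.4. In the knockout on bicarbonate, Cyp2j5 in replicate 2 was at 435.3 against 361.1 to 369.4, and Gstm1 in replicate 1 was at 412.9 against 338.8 to 350.7.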

How the results depend on the processing

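The count of members called for bicarbonate in wild type was 0, and was 1 with only the groups compared, 1 with quantile normalization and 0 to 2 with 1 library left out. For genotype on water it was 4, and was 9 with median-of-ratios scaling, 8 with quantile normalization, 9 after removal of a length and GC trend and 3 to 9 with 1 library left out. For genotype on bicarbonate it was 7, and 6 to 8 with 1 library left out. For bicarbonate averaged over genotypes it was 5, and was 2 with the replicate block, 2 with quantile normalization, 1 with neither trended nor robust variance and 1 to 5 with 1 library left out. The cause of these shifts was not tested, and shares of all genes were counted for the main fit only. The drink count in the knockout and the interaction count were 0 in every alternative run. Nothing in the labels says that equal replicate numbers pair animals. Of 24 same-number pairs, 2 correlated above 0.1 (range -0.097 to 0.105), and 6 of 16 libraries correlated best with their own number. Such correlations cannot show whether animals were paired. With the replicate block the counts were 0 for both drink comparisons, 5 and 7 for genotype on water and on bicarbonate and 0 for the interaction. Over 46 results on single members and 1081 alternative values, 951 kept direction and side of the threshold, 119 lost the call, 11 gained one and 0 reversed. Depth is unknown, so what limits the low members beyond the spread between animals cannot be stated.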

Other observations

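A contrast that averages the drink difference over both genotypes, chosen after seeing the data, called 5 of 60 members, all lower on bicarbonate, where limma called 0.440% of all genes. They were Fmo1 at -0.52 (SE 0.08, adjusted p = 0.0163), Ugt1a2 at -0.54 (SE 0.10, adjusted p = 0.0361), Cyp2j5 at -0.33 (SE 0.06, adjusted p = 0.0382), Ugt2b34 at -0.40 (SE 0.08, adjusted p = 0.0395) and Gsta2 at -0.34 (SE 0.07, adjusted p = 0.0432) on the log2(RPKM + 0.1) scale. They span drug oxidation (Fmo1), arachidonic acid epoxidation (Cyp2j5), glucuronidation (Ugt1a2 and Ugt2b34) and glutathione conjugation (Gsta2). Fmo1 kept its call in all 27 alternatives, with an adjusted p of up to 0.0429. The other calls were close to the threshold. The count fell to 1 without wild type, water, replicate 2 or 3, without wild type, bicarbonate, replicate 1 or 2, without knockout, water, replicate 3 or without knockout, bicarbonate, replicate 3 or 4. It fell to 2 without wild type, water, replicate 4, knockout, water, replicate 2 or knockout, bicarbonate, replicate 2, and to 3 without wild type, water, replicate 1 or wild type, bicarbonate, replicate 3.

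The genotype difference averaged over both drinks, also chosen after seeing the data, called 14 of 60 members (10 higher and 4 lower in the knockout), or 23.3%, where 33.7% of all genes were called. Beyond the members already described, Cyp2d22 differed by 0.51 (SE 0.16, adjusted p = 0.0233, limma), Cyp2a5 by 0.81 (SE 0.25, adjusted p = 0.0235) and Cyp2j7 by 0.46 (SE 0.14, adjusted p = 0.0238). Summed with its close copy Cyp2a4, Cyp2a5 gave a smaller difference of 0.33 (adjusted p = 0.0195). Gstp2 at -1.04 ± 0.36 (SE), Ugt1a7c at -0.24 ± 0.08 (SE) and Gstm2 at 0.28 ± 0.10 (SE) also passed, and lost the call in 10 of 26, 17 of 26 and 18 of 27 alternatives. Summed, Gstp1 and Gstp2 gave -0.49 (adjusted p = 0.000656). The share of RPKM from mitochondrial genes, 69.6% to 74.2% in wild type and 82.6% to 84.9% in the knockout, separates the same groups, and its part was not tested.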
